A study of Homo sapiens with 6 samples.

Results

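The ancient conserved repeats described here are the 115 entries, of 15641 in a table of counts per repeat name, whose names start with UCON (84 entries), Eulor (21), MARE (6), AmnSINE (2), MamSINE (1) or LFSINE (1). The rule uses their names and no measured value. The counts come from chromatin-fraction RNA of H9 cells, an established line of human embryonic stem cells, with 3 libraries labelled naive and 3 labelled primed. The naive state stands for an earlier embryonic stage than the primed state. The labels describe the same RSeT naive medium for all 6 libraries, so the treatment label alone separates the groups. All libraries are from 1 cell line, and no label says that they came from separate cultures. The p-values therefore reflect only how far these libraries vary, and that variation may be technical. In such bulk RNA, fewer cells of a type and less RNA per cell cannot be told apart.

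These families are relics of mobile elements or other repeats that spread long before placental mammals arose, and some of their copies are conserved among distant vertebrates. Eulor stands for euteleostome conserved low-frequency repeats. AmnSINE, MamSINE and LFSINE are short interspersed elements, non-coding retrotransposons copied by the enzymes of longer elements, and are named after amniotes, mammals and lobe-finned fishes. Copies of AmnSINE1 are known as enhancers of developmental genes, and a copy of LFSINE is known as an enhancer near ISL1. Each entry adds up the counts of all genomic copies of a family. Copy number, element length and position were not used here, so a higher count for one family than for another is not a higher level per copy.

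Library totals ran from 7192242 to 17791046 counts in 5 libraries and came to 118793 in primed library 2. A single count in that library corresponds to 5.59 CPM (CPM are counts relative to a library size of 1000000, scaled by TMM factors, which match the libraries on the bulk of their entries). Of the 115 families, 113 had a count in naive libraries 1 and 3 and in primed libraries 1 and 3, and 114 had one in naive library 2. In primed library 2 only 66 had a count, 42 of them with 1 to 3 counts, and 49 stood at 0. That number is not low for the depth. From their own shares, the other 5 libraries would be expected to show between 51.9 and 62.1 of the families at a total of 118793 counts. For primed library 2 itself the same sum gave 55.0, which is no check on depth, since families at 0 there add nothing to it. A count of 0 in primed library 2 allows up to 25.3 CPM without TMM scaling (3 counts), so a family at 0 there was not detectable at this depth and cannot be called absent. Intervals and limits from counts cover counting error only. Genes are not counted in this table, so the cell type was looked at through repeats known to be transcribed in pluripotent cells. HERVH-int was at 24094 to 42442 CPM in the naive and 11938 to 16230 CPM in the primed libraries. LTR7 was at 1059 to 1574 CPM in the naive and 565 to 766 CPM in the primed libraries. HERVK-int was at 5589 to 14334 CPM in the naive and 804 to 987 CPM in the primed libraries.

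As a share of all counts, the 115 families together were lower in the naive libraries. Their share was 0.210%, 0.148% and 0.196% in naive libraries 1, 2 and 3. In primed libraries 1, 2 and 3 it was 0.231%, 0.291% and 0.265% (primed library 2: 346 counts, 95% Wilson interval 0.262% to 0.324%). The groups did not overlap, with means of 0.185% ± 0.0324 and 0.262% ± 0.0304 (SD, n = 3). Alpha satellite, the repeat of human centromeres, held 25.3% to 42.9% of counts in naive libraries and 0.221% to 0.625% in primed libraries, and ribosomal RNA entries 0.162% to 6.07% and 4.03% to 17.7%. Of the counts outside alpha satellite and ribosomal RNA, the families held 0.305%, 0.287% and 0.300% in naive and 0.281%, 0.305% and 0.289% in primed libraries. On this total the groups overlapped, with means of 0.298% ± 0.00940 and 0.292% ± 0.0125 (SD, n = 3). A list of 128 other ancient repeats, such as MIR, L2, L3, CR1 and the Mam, Eut and X-numbered entries, served as another base. Relative to its counts the families stood at 1.47% ± 0.0648 in naive and 1.45% ± 0.0379 in primed libraries (SD over 3 libraries each), again with overlap.

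**Figure D1:**
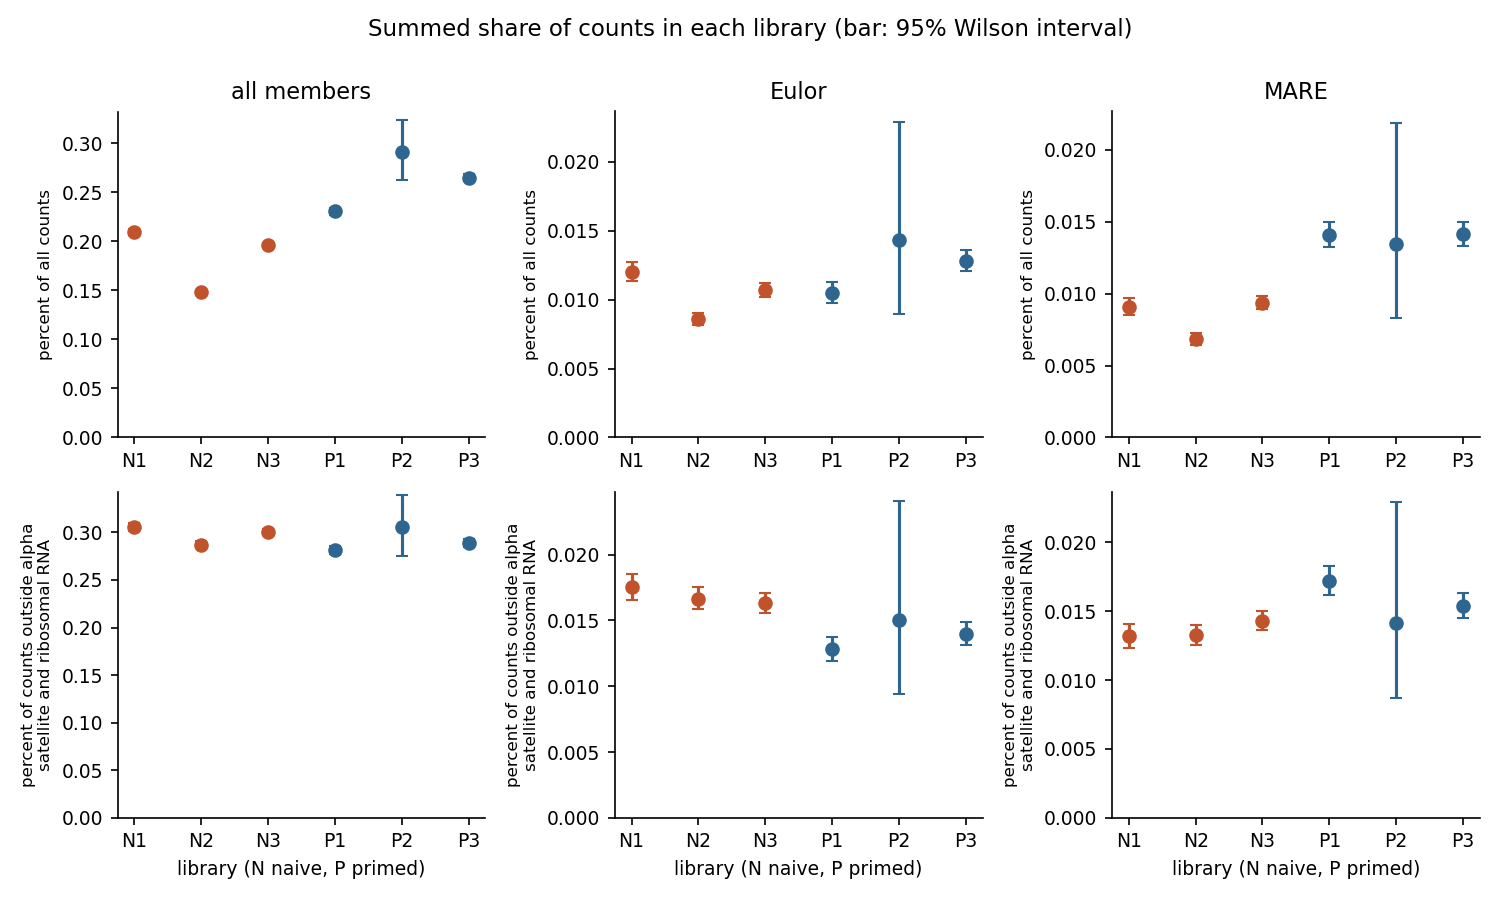
Percent of counts held by all 115 families (left), by the 21 Eulor entries (middle) and by the 6 MARE entries (right) in naive (N, orange) and primed (P, blue) libraries 1 to 3, of all counts (top) and of counts outside alpha satellite and ribosomal RNA (bottom), with 95% Wilson intervals. All families together are lower in naive libraries in the top row and overlap in the bottom row, and the interval of P2 is wide for Eulor and MARE.

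Each family was compared between naive and primed libraries with edgeR's quasi-likelihood test, fitted on the whole table, and is called where its Benjamini-Hochberg adjusted p over all entries tested was under 0.05. Of the 115 families, 100 passed the filter on low counts and were tested. Of these, 7 were higher in naive libraries (UCON61, UCON12A, Eulor1, UCON83, UCON1, UCON5 and UCON8), 1 was lower (MARE10) and 92 were not called. UCON61 and UCON12A passed the filter through the naive libraries alone. Over all 3219 entries tested, 4.94% were called higher and 7.77% lower. Over the 1265 named repeats among them, which leave out simple repeats, the shares were 10.4% and 1.19%. The families' 7% and 1% lie near or below those of the named repeats, so the number of calls is no result about these families as a set. At an unadjusted p under 0.05 there were 26 of 100, below the 31.6% over all entries tested and the 31.5% over named repeats.

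The median log2 change, naive minus primed, of the 100 tested families was 0.24 with TMM scaling, while it was 0.17 for 125 tested entries of the other ancient repeats, 0.21 for 1165 named repeats outside the families and -0.0046 for all entries. The sign of these medians rests on the scaling. With library size as the only scaling the median of all entries moved from -0.0046 to -0.61 and that of the families to -0.36, and with simple repeats left out of the fit the families' median was -0.0013. With TMM scaling 72 of 100 lay above 0, with library size only 32 of 100, and with simple repeats left out of the fit 49 of 98. The changes given below use TMM and are therefore changes relative to the bulk of the table. Of its 3219 tested entries, 1954 were simple repeats, with a median log2 change of -0.34.

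**Figure D2:**
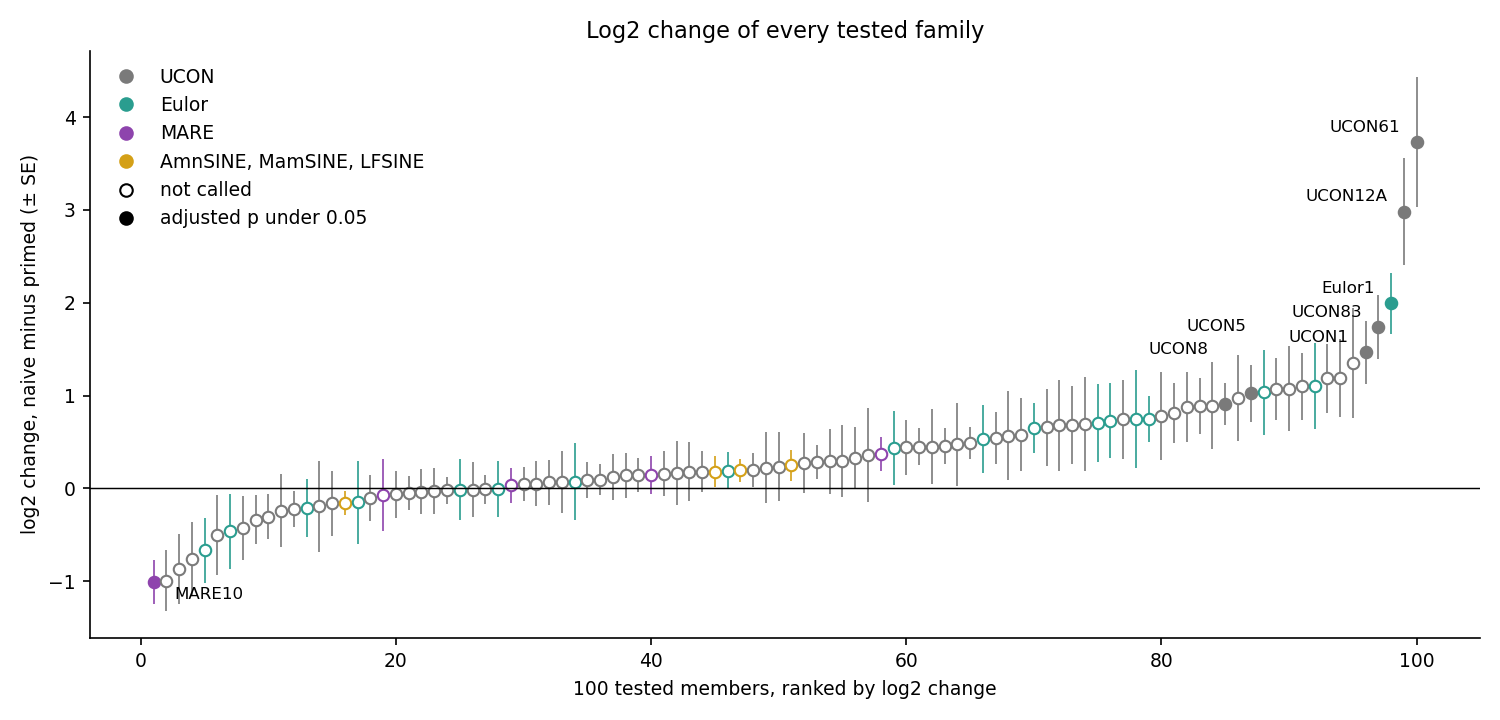
Log2 change, naive minus primed, of each of the 100 tested families in rank order, with its standard error, coloured by name group and filled where the edgeR adjusted p was under 0.05. Of the 100 families 72 lie above 0, and the range runs from MARE10 at -1.01 to UCON12A at 2.98 and UCON61 at 3.73.

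Of all counts of the 115 families, MamSINE1 gave 25.3%, LFSINE_Vert 10.8%, AmnSINE1 10.4% and AmnSINE2 2.11%. None of the 4 SINE entries was called by edgeR. MamSINE1, the mammalian element, was at 599, 592 and 594 CPM in the naive libraries, in the order 1, 2, 3 used for every family. Its primed libraries were at 480, 526 and 557 CPM. The groups did not overlap, yet the log2 change was only 0.19 ± 0.12 (SE; edgeR adjusted p = 0.295). AmnSINE1, the amniote element, was at 238, 243 and 244 CPM in naive and at 229, 134 and 218 CPM in primed libraries. Its low value was that of primed library 2, which rests on 24 counts, and the log2 change was 0.25 ± 0.16 (edgeR adjusted p = 0.326).

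LFSINE_Vert went the other way, with 252, 224 and 229 CPM in naive and 281, 263 and 243 CPM in primed libraries. Its groups overlapped and the change did not pass (log2 -0.16 ± 0.13, edgeR adjusted p = 0.426). As a share of all counts LFSINE_Vert was called lower, with a log2 change of -0.81 when library size was the only scaling (edgeR adjusted p = 0.0116). AmnSINE2 averaged 48.9 ± 7.33 CPM in the naive group and 43.6 ± 2.15 CPM in the primed group (SD, n = 3; edgeR adjusted p = 0.504). With library size only, MamSINE1, AmnSINE1 and AmnSINE2 turned to -0.49, -0.37 and -0.45 and were not called. For these SINE families the test thus found no difference past its threshold under TMM, which does not show that their levels were equal.

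The UCON names cover the largest group, and 73 of its 84 entries were tested. Of these, 6 were called higher by edgeR, 0 lower and 67 were not called, against 4.94% higher and 7.77% lower over all entries and 10.4% and 1.19% over named repeats. Their median log2 change was 0.28 with TMM, and the range ran from -0.995 (UCON23) to 3.73 (UCON61).

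UCON61 and UCON12A had the largest changes and the fewest counts of the called families. UCON61 had 12, 21 and 23 counts in the naive libraries but 0, 0 and 2 in the primed ones. Set against the TMM-scaled totals, its naive rate was 14.8 times its primed rate (95% counting interval 3.92 to 126). Its naive libraries all lay above its primed ones (fitted log2 3.73 ± 0.70, edgeR adjusted p = 0.0133). UCON12A had 23, 39 and 28 counts in naive and 1, 0 and 5 in primed libraries. Its groups did not overlap either (log2 2.98 ± 0.58, edgeR adjusted p = 0.0141). Both families passed the count filter through the naive libraries alone, since neither reached its limit of 1.12 CPM in any primed library. They were tested only because they were high in naive libraries, so these values are not read as support for a difference.

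UCON83 was at 11.4, 16.0 and 10.3 CPM in naive libraries and at 4.17, 0 and 3.59 CPM in primed libraries, from 33, 0 and 36 primed counts. The naive libraries were above all primed ones. For UCON83, UCON61, UCON12A and Eulor1, each with 0 counts in primed library 2, that comparison rests on primed libraries 1 and 3, since the 0 sets no useful limit. The change was 3.34-fold (log2 1.74 ± 0.34, edgeR adjusted p = 0.0148). UCON1 was at 11.4, 16.0 and 12.5 CPM in naive and at 3.42, 11.2 and 5.68 CPM in the primed group (log2 1.47 ± 0.34, edgeR adjusted p = 0.0236). The value of 11.2 CPM in primed library 2 comes from 2 counts and lies just below the lowest naive library.

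UCON8, the most abundant of the families called higher, had 275, 399 and 431 counts in naive libraries and 127, 1 and 199 in primed libraries. That corresponds to 32.4 ± 2.93 CPM and 13.8 ± 7.37 CPM (SD, n = 3), without overlap (log2 0.91 ± 0.23, edgeR adjusted p = 0.0290). UCON5 was at 9.21, 14.3 and 9.55 CPM in naive libraries. In primed libraries it was at 5.44, 5.59 and 5.38 CPM, the middle value from 1 count. Its call was borderline (log2 1.03 ± 0.31, edgeR adjusted p = 0.0499), and only 4 of 16 other settings kept it.

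**Figure D3:**
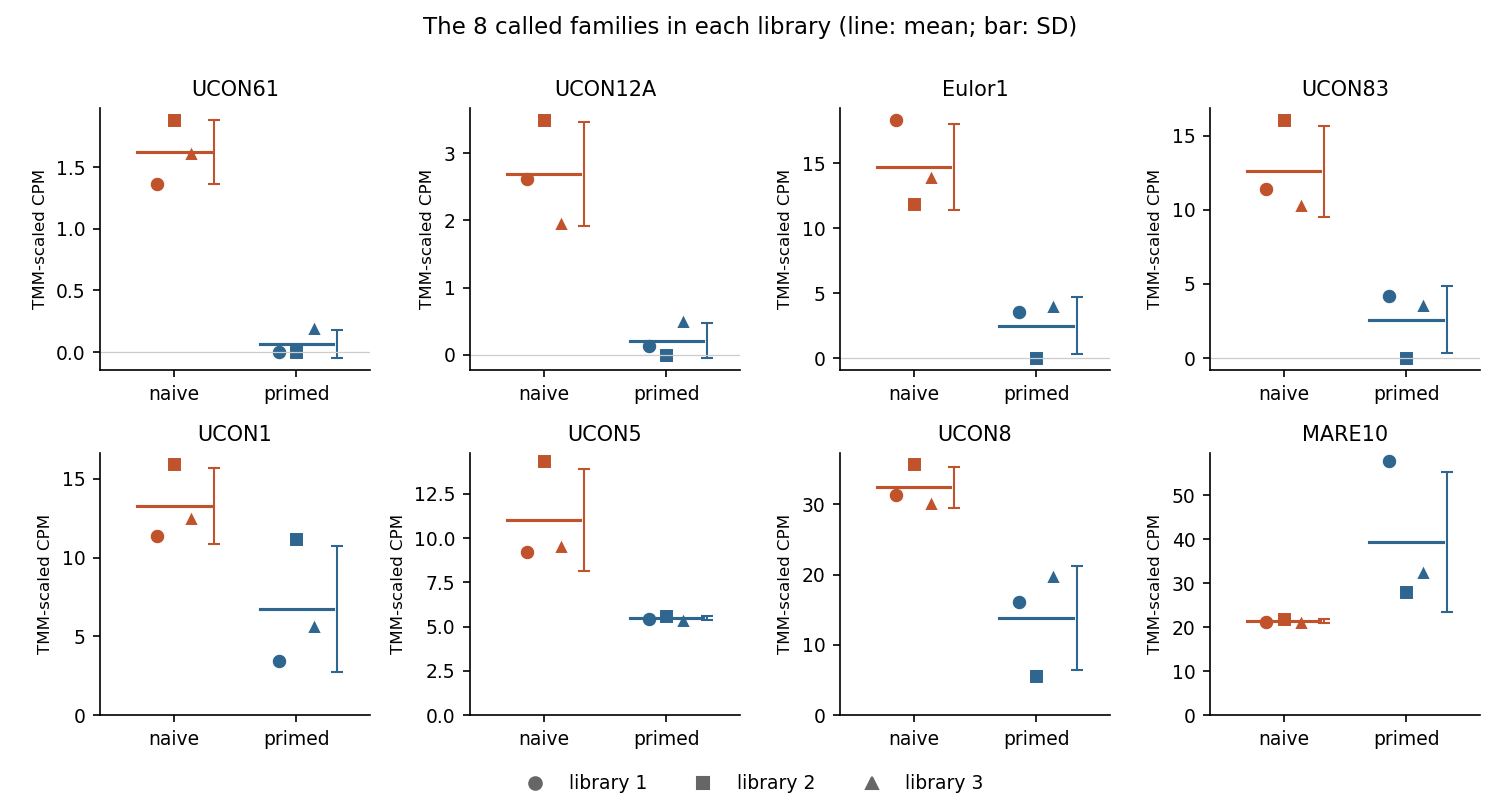
TMM-scaled CPM of the 8 called families in naive (orange) and primed (blue) libraries, with libraries 1, 2 and 3 as circle, square and triangle, the mean as a line and the SD as a bar. Naive libraries lie above primed ones in 7 panels and below them for MARE10, where primed library 1 at 57.7 CPM stands apart from primed libraries 2 and 3.

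None of the 5 most abundant UCON families described next was called with all libraries and TMM. UCON105 was at 66.9, 70.0 and 69.5 CPM in naive and at 43.8, 33.6 and 57.7 CPM in primed libraries. The groups did not overlap, but the change did not pass (log2 0.49 ± 0.17, edgeR adjusted p = 0.0766). It was called higher with the replicate number as a block (0.50, edgeR adjusted p = 0.0216) and without primed library 3 (0.70, edgeR adjusted p = 0.0376). UCON55 had 474, 562 and 733 counts in the naive libraries and 377, 12 and 534 in the primed ones (log2 -0.01 ± 0.16). UCON44 averaged 51.6 ± 2.38 CPM in the naive group and 53.2 ± 2.37 CPM in the primed group (SD, n = 3; log2 -0.02 ± 0.15). UCON34 gave 0.28 ± 0.18 and UCON38 0.09 ± 0.17. The groups of UCON55 and UCON44 overlapped. Those of UCON34 and UCON38 did not, but the lowest naive and highest primed libraries nearly met. They were at 35.44 and 35.42 CPM for UCON34 and at 31.9 and 31.6 CPM for UCON38. For UCON55, UCON44, UCON34 and UCON38 the edgeR adjusted p was 0.977, 0.944, 0.305 and 0.734. With library size only, UCON105, UCON55, UCON44, UCON34 and UCON38 were all below 0 and not called.

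At the lower end UCON23 had 109, 114 and 110 counts in naive and 197, 6 and 130 in primed libraries. In CPM it was at 12.4, 10.2 and 7.72 in naive and at 24.9, 33.6 and 12.9 in primed libraries, so all primed values lay above the naive ones, with naive library 1 just below primed library 3. It missed the threshold with TMM (log2 -0.995 ± 0.33, edgeR adjusted p = 0.0667). It was called lower in 6 other settings. These were the fits without primed library 3 (-1.40, edgeR adjusted p = 0.0239) or naive library 1 (-1.14, edgeR adjusted p = 0.0339), with upper-quartile factors (edgeR adjusted p = 0.0487), no filter (0.0100), the replicate block (0.00542) and library size only (0.000257). UCON80 (log2 -0.87 ± 0.37) and UCON99 (-0.76 ± 0.40) were not called, with edgeR adjusted p of 0.138 and 0.215. UCON80 and the related UCON80_AMi, whose suffix stands for the American alligator, were both below 0 (UCON80_AMi -0.30 ± 0.24, edgeR adjusted p = 0.419).

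Of the 21 Eulor entries 18 were tested, 1 was called higher by edgeR, 0 lower and 17 were not called, near the shares of 4.94% and 7.77% over all entries or 10.4% and 1.19% over named repeats. The median log2 change of the 18 was 0.48 with TMM. Eulor1 had 161, 132 and 198 counts in naive libraries and 28, 0 and 40 in primed libraries. Scaled, it was at 18.3, 11.8 and 13.9 CPM in naive and at 3.54, 0 and 3.98 CPM in primed libraries, so that the naive libraries lay well above primed libraries 1 and 3. The change was 3.98-fold (log2 1.99 ± 0.33) with the lowest adjusted p of the tested families (edgeR adjusted p = 0.00959). Scaled to the counts of the ancient repeats alone, it stood at 1.89 (edgeR adjusted p = 0.0167), and with library size only at 1.46 (edgeR adjusted p = 0.00488).

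The summed Eulor share of counts outside alpha satellite and ribosomal RNA was 0.0175%, 0.0167% and 0.0163% in naive and 0.0128%, 0.0150% and 0.0140% in primed libraries. The groups did not overlap, although the value of primed library 2 rests on 17 counts. Without Eulor1, a split made after the values were seen, the means were 0.0150% ± 0.000373 and 0.0136% ± 0.00134 (SD, n = 3) and the groups overlapped. As a share of all counts the direction turned, with 0.0104% ± 0.00173 (naive) and 0.0126% ± 0.00191 (primed), and the groups overlapped too.

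Among Eulor entries that share a number the values varied, and whether they differ was not tested. Eulor5A was at 19.0, 20.5 and 19.2 CPM in naive and at 9.74, 5.59 and 14.1 CPM in the primed group (log2 0.75 ± 0.25, edgeR adjusted p = 0.0688). It was called higher with the replicate block (edgeR adjusted p = 0.0371) and without primed library 3 (1.05, edgeR adjusted p = 0.0422). Eulor5B gave a log2 change of 1.03 ± 0.45 (edgeR adjusted p = 0.144). Eulor9C gave 0.65 ± 0.27, Eulor9A 0.19 ± 0.20 and Eulor9B 0.07 ± 0.42. The 3 Eulor2 entries lay between -0.22 and -0.01. Among the Eulor6 entries the fitted change was 0.53 for Eulor6B and -0.46 ± 0.40 for Eulor6C, while Eulor6A was too low to be tested. Eulor6D and Eulor6E had fitted changes of 0.44 and 0.75, but their mean CPM went the other way (5.27 naive and 6.14 primed for Eulor6D, 2.16 and 4.47 for Eulor6E), with primed library 2 at 11.2 CPM from 2 counts in each. Eulor12 was the lowest Eulor entry (-0.67 ± 0.35, edgeR adjusted p = 0.216), with 72, 66 and 73 counts in naive and 91, 0 and 100 in primed libraries.

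UCON entries with a shared number varied too, and their differences were not tested. UCON12 was at 7.39, 8.24 and 8.28 CPM in naive and at 3.42, 0 and 4.38 CPM in primed libraries, and just missed the threshold (log2 1.07 ± 0.33, edgeR adjusted p = 0.0570), where UCON12A passed it. UCON28a (0.88 ± 0.30, edgeR adjusted p = 0.0735) and UCON28c (0.88 ± 0.38) lay above 0 and UCON28b at -0.04 ± 0.24. UCON9 was at -0.43 ± 0.34 and UCON9B at 0.07 ± 0.34. The sources used here do not say how reads that match several related families were counted, so counts can be split among such names.

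Of the 6 MARE entries 5 were tested, 0 were called higher by edgeR, 1 lower and 4 were not called, where 7.77% of all entries and 1.19% of named repeats were called lower. A share of so few entries cannot be read against these. MARE10 had 186, 244 and 302 counts in naive libraries and 456, 5 and 326 in primed libraries. At 21.2, 21.9 and 21.2 CPM the naive libraries were nearly equal. The primed libraries were at 57.7, 28.0 and 32.5 CPM, all above the naive ones, with primed library 1 far above primed libraries 2 and 3. MARE10 was 2.01-fold lower in naive libraries (log2 -1.01 ± 0.24, edgeR adjusted p = 0.0240). Without primed library 1 the log2 change was -0.58 and was not called (edgeR adjusted p = 0.241), and without naive library 2 it was -0.99 and missed the threshold (edgeR adjusted p = 0.0506). With library size only it was -1.58 (edgeR adjusted p = 8.48e-06).

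The other MARE entries did not follow MARE10. MARE8 averaged 30.3 ± 2.32 CPM in the naive group and 23.2 ± 1.30 CPM in the primed group (SD, n = 3) without overlap, and was not called (log2 0.37 ± 0.18, edgeR adjusted p = 0.195). MARE4 (0.03 ± 0.19), MARE6 (0.14 ± 0.21) and MARE9 (-0.07 ± 0.39) lay near 0. Whether MARE10 differs from them was not tested. The summed MARE share of counts outside alpha satellite and ribosomal RNA was 0.0136% ± 0.000619 in the naive group and 0.0156% ± 0.00153 in the primed group (SD, n = 3), with overlap. Of all counts it was 0.00841% ± 0.00137 and 0.0139% ± 0.000367, and of named repeats outside alpha satellite and ribosomal RNA 0.0143% ± 0.000556 and 0.0168% ± 0.00195, in both cases with the naive libraries below. On the named-repeat base, naive library 3 at 0.01496% and primed library 2 at 0.01498% nearly met. That value of primed library 2 rests on 16 counts. Without MARE10, again a split made after the values were seen, the share outside alpha satellite and ribosomal RNA was 0.0108% ± 0.000598 and 0.0101% ± 0.000844.

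The spread of the changes was wider among rarely counted families. In the third of tested families with the lowest mean over all libraries (0.843 to 4.29 CPM, 33 families) the log2 changes had an SD of 0.93 and a median SE of 0.43. In the third with the highest mean (15.9 to 558 CPM, 34 families) the SD was 0.35 and the median SE 0.20. Of the 100 tested families, 2 reached the filter's 1.12 CPM in no primed library and 9 in only 1. These families passed the filter mainly through their naive libraries. UCON61 and UCON12A, both of low mean, were called higher, but as stated above their values are not read as support for a difference. For the other families of low mean no difference is concluded from the sign of the change. In primed library 2, 24 of the 33 families with the lowest means and 0 of the 34 with the highest were at 0. The means include primed library 2 with the same weight as the others. A 0 there lowers a family's mean, so this contrast is partly built into the split. The part of depth and of the filter in the wider spread was not tested.

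**Figure D4:**
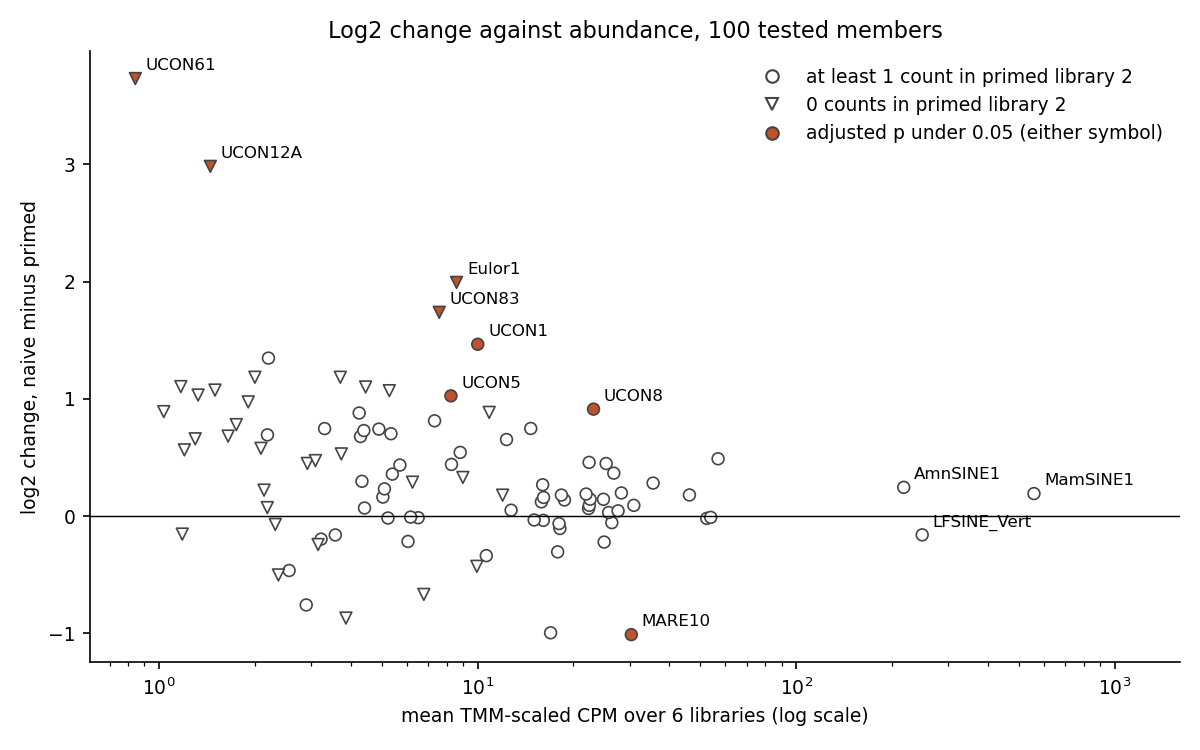
Log2 change, naive minus primed, of the 100 tested families against their mean TMM-scaled CPM over 6 libraries (log axis), with triangles for families at 0 in primed library 2 and filled symbols for an edgeR adjusted p under 0.05. The spread is widest on the left, where UCON61 and UCON12A lie, and the abundant MamSINE1, LFSINE_Vert and AmnSINE1 lie near 0.

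In 29 of the 100 tested families all naive libraries were above all primed ones in CPM, and in 4 all were below, against 19.4% and 11% over all entries tested and 36% and 3.24% over the named repeats. Since 1 count in primed library 2 moves a family by 5.59 CPM, that library alone often decides whether groups overlap. Over the other 5 libraries the counts were 44 above and 8 below, against 25% and 27.2% over all entries and 47.1% and 11% over the named repeats. The families' shares above lie over those of all entries and under those of the named repeats in both cases. Families that passed the filter mainly through their naive libraries, such as UCON61, UCON12A and UCON100, are among those above. For such families the filter itself favoured naive values above primed ones. Its part in these counts was not tested. With primed library 2 left out of the fit, 11 of 105 families were called by edgeR, 10 higher and 1 lower, where 14.6% of all entries were called. These included all 8 families called with the 6 libraries, and added UCON28a (0.83, edgeR adjusted p = 0.0466), UCON12 (1.04, edgeR adjusted p = 0.0459) and UCON57 (2.01, edgeR adjusted p = 0.0378). UCON57 had 2 and 5 counts in primed libraries 1 and 3 and passed the filter of that fit through its naive libraries alone. As for UCON61 and UCON12A, its call is not read as support for a difference.

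No call held without primed library 1. In its absence edgeR called 0 of 103 families, and 0.432% of all entries tested. At an unadjusted p under 0.05 there were 13 of 103 families and 14.7% of all entries. The primed group of that fit was library 3 and the shallow library 2, with its 118793 counts. Whether the loss of calls lies in this depth or in the values of primed library 1 was not tested. The log2 changes of Eulor1 (1.93, edgeR adjusted p = 0.0701), UCON83 (1.86, 0.0804), UCON5 (1.02, 0.248) and UCON8 (0.81, 0.186) were then close to those with all libraries. Those of UCON61 (2.97, 0.157), UCON12A (2.42, 0.157) and UCON1 (1.14, 0.180) were smaller. Naive library 2 mattered as well, since without it only Eulor1, UCON83 and UCON12A were called, 3 of 104 families. Over all entries tested, 1.58% were then called higher and 3.44% lower. UCON61 was not tested when any naive library was left out. The values of UCON61 and UCON12A are again not read as support for a difference, since both passed the filter through the naive libraries alone.

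**Figure D5:**
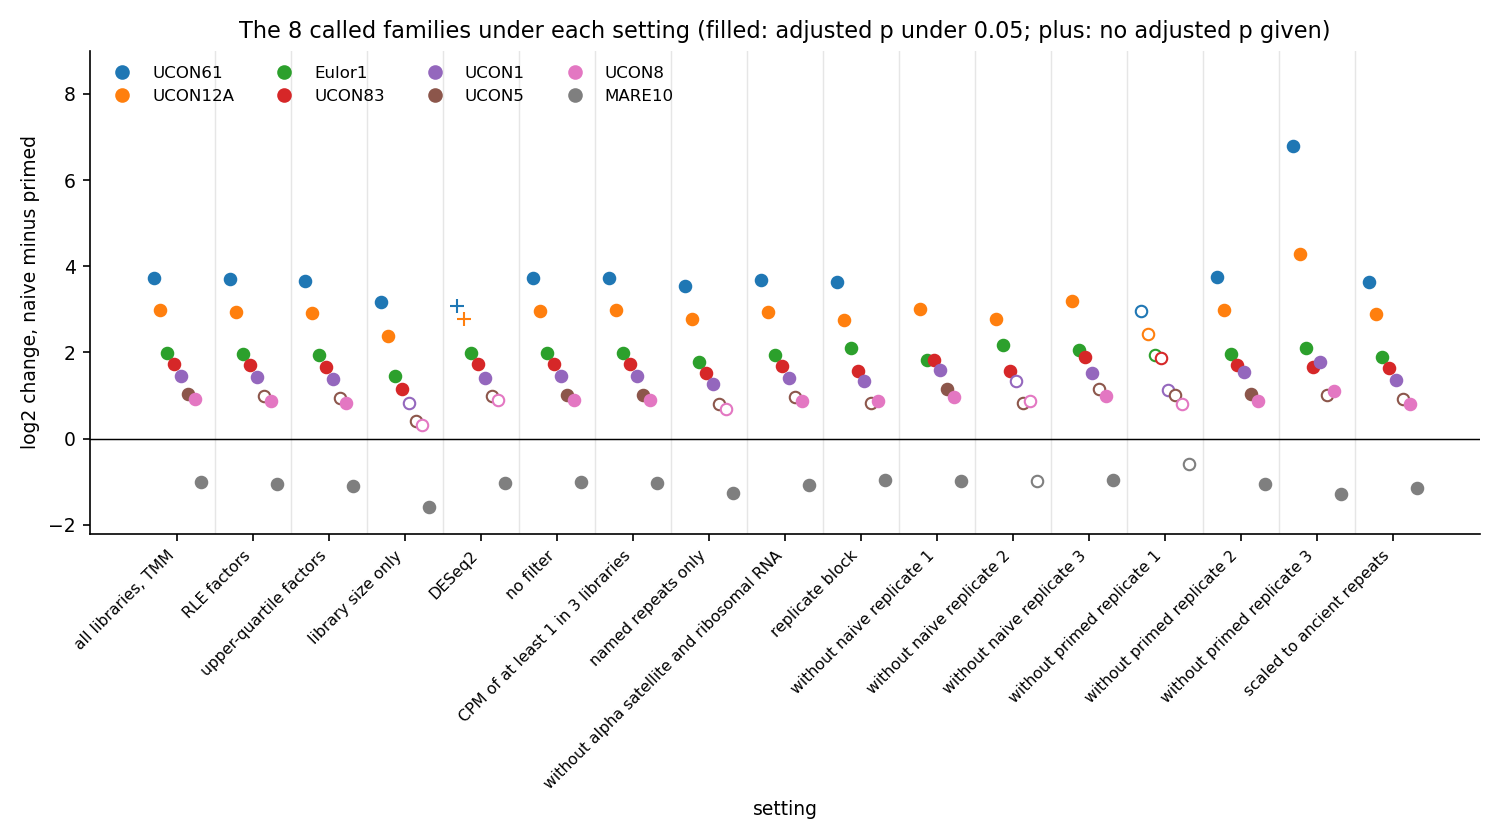
Log2 change, naive minus primed, of the 8 called families (colours) under each setting, with filled circles for an adjusted p under 0.05, open circles for a higher one and plus signs where DESeq2 gave no adjusted p. All 8 keep their direction under each setting in which they were tested, and all 8 are open without primed replicate 1.

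The 15 families below the filter held 568 counts, 0.482% of those of the 115 families, with at most 68 counts each. All 15 were at 0 in primed library 2, so no direction is read from them. UCON57, which was called in 3 other settings, had 14, 16 and 24 counts in the naive libraries but 2, 0 and 5 in the primed ones. Where those settings had a filter, UCON57 passed it through the naive libraries alone, so its calls are not read as support for a difference. Eulor3 had the most counts, 45 naive and 23 primed. UCON92 had 0 counts in all 6 libraries.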

How the data were processed

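The deposited table gives unnormalised read counts for each repeat name in each library, judged from its whole numbers and unequal totals. Per the submitters' processing notes the tools were Trimmomatic 0.39, STAR 2.7.8a, featureCounts and Subread 2.14.2. Genome build, repeat annotation, strand setting and the treatment of multi-mapping reads: not given in the sources used here. Columns were matched to samples by title and groups taken from the treatment label.

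The 115 members and the list of other ancient repeats were chosen with earlier results of these data known. edgeR 4.0.16 (R 4.3.3) was fitted on all rows that passed filterByExpr, with TMM factors and no block, and p-values were adjusted over all 3219 rows. Standard errors were derived from the F statistic and the log2 change. The fit was tested on simulated counts. Families named are those called, the 10 with the highest mean CPM, the 3 most abundant per name group and the 5 largest changes in each direction. Families sharing a number, and those called only in some settings, were added after their values were seen.

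Alternatives were RLE, upper-quartile or no factors, DESeq2 1.42.0, 2 other filters, rows left out, a replicate block and each library left out. Scaling to ancient repeats was chosen after seeing the data. Figures used matplotlib 3.10.9.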

Additional observations from a re-analysis of the deposited data

How the results depend on the processing

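Of 16 alternatives, 4 to 13 families were called in those with all libraries, against 8. Over the entries tested in each of these, 0.870% to 8.20% were called higher and 1.34% to 32.6% lower. Library size only gave 13 of 100 (4 higher, 9 lower; all entries 0.870% and 32.6%). No filter gave 13 of 114 (11 higher, 2 lower; all entries 2.59% and 5.86%). DESeq2 gave 4 of the 79 with an adjusted p (3 higher, 1 lower; all entries 3.67% and 5.84%). Calls lower numbered 2 of 100 with upper-quartile factors (all entries 10.7%) and 2 with the replicate block (11.6%). Leaving out 1 library gave 0 to 11 calls, 0 to 10 higher and 0 to 2 lower. Over all entries the shares then ran from 0.230% to 6.81% higher and from 0.202% to 11.8% lower. The median log2 change was 0.16 with upper-quartile factors, -0.36 with library size only, -0.0013 with named repeats only and 0.12 scaled to ancient repeats. The difference in summed share, -0.0776 points of all counts, was 0.0058 points outside alpha satellite and ribosomal RNA and -0.00018 points of named repeats outside these.

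No called family changed direction. Library size only turned MamSINE1 (-0.49), AmnSINE1 (-0.37), UCON105 (-0.11), AmnSINE2 (-0.45), UCON34 (-0.30), UCON38 (-0.51), MARE8 (-0.24), MARE4 (-0.56) and Eulor9A (-0.42). Named repeats only turned MamSINE1 (-0.032), AmnSINE1 (-0.0038), AmnSINE2 (-0.031), UCON38 (-0.12), MARE4 (-0.18) and Eulor9A (-0.0199). MARE4 also turned with RLE (-0.0028), upper-quartile factors (-0.0455), DESeq2 (-0.0018), without alpha satellite and ribosomal RNA (-0.0155) and scaled to ancient repeats (-0.088), as did UCON38 (-0.0277) in the last. With 1 library left out UCON55 ranged from -0.12 to 0.054, UCON44 from -0.044 to 0.032 and MARE4 from -0.083 to 0.17. The cause of these shifts was not tested.

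UCON8 was lost with library size only (log2 0.33, edgeR adjusted p = 0.438), DESeq2 (0.90, DESeq2 adjusted p = 0.0609) and named repeats only (0.69, edgeR adjusted p = 0.0723). UCON1 was lost with library size only (0.83, edgeR adjusted p = 0.126).

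Libraries with the same number deviated together weakly over 3219 rows (correlations of 0.146, 0.0867 and 0.0659), so the numbers were not taken to pair them, although each library correlated best with its own number. With the replicate block 10 of 100 families were called higher, against 8.20% of all entries.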
